A study of Homo sapiens with 25 samples.

Results

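The replication-dependent histone genes were described over graded histidine in DND-41, an established line from a human T-cell leukaemia. Members were the rows named H2AC, H2BC, H3C or H4C with a number and the linker genes H1-1 to H1-5. H2AC6, H2BC4, H2BC5, H2BC12 and H2BC21 were left out. The rule found 54 of the 31919 rows of the table: 4 linker H1 genes, 12 H2A, 13 H2B, 13 H3 and 12 H4 genes. H1-1 was not among the rows analysed. Of the 54 genes, 51 passed the filter on low values and were tested, and H2AC14, H2AC25 and H2BC14 were not.

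The cells were cultured in media with 100%, 50%, 25% or 12.5% of the histidine level or with no histidine, and RNA was sequenced on day 6 and day 9. Each group held 3 libraries, except 25% on day 6 and 50% on day 9, which held 2, and cells without histidine were sequenced on day 6 only. All groups are the same cell line with no other named treatment, and a group differs from another only in histidine and day. Days are given as on the samples, whereas the series' design text names days 3 and 6. One no-histidine library, replicate 1, carries day 6 in its title and day 9 in its time label, and it was kept at day 6. Nothing in the labels shows whether replicates came from separate cultures, so the p-values reflect the spread among these libraries only, and that spread may be technical. Values are the authors' DESeq2-normalized counts. Changes are differences in log2(normalized count + 1) with standard errors, tested with limma, and called at a Benjamini-Hochberg adjusted p under 0.05 over 18799 tested rows. This scale understates changes of low genes.

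Replication-dependent histones package newly copied DNA, and their genes are transcribed mainly in S phase. Core histones H2A, H2B, H3 and H4 form the nucleosome, and linker H1 binds where DNA enters and leaves it. Their mRNAs are the known class of animal mRNA that normally ends in a stem-loop and not in a poly(A) tail. SLBP binds that stem-loop, U7 snRNP directs the cut behind it, and NPAT drives transcription of the gene clusters at histone locus bodies. The left-out genes are known to make polyadenylated transcripts as well.

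The genes lie in clusters. On GRCh38, 44 of the 54 lie on chromosome 6 between positions 26020451 and 27893891, 9 on chromosome 1 and H4C16 on chromosome 12 (14770720 to 14771131, minus strand). All 54 matched a RefSeq gene and 51 a GENCODE 29 gene, an annotation that may differ from the one behind the table. A search of the GENCODE transcripts for the stem-loop found it in 24 of the 54. The same search found it in 113 of 206694 transcripts (0.0547%). The stem-loop is the 3′ end signal of these mRNAs, and it is shown because the genes were told apart below by whether a listed transcript runs past it. Capitals mark the 4-base loop between the arms of the 6-base-pair stem.
Shared by 13 genes, among them H2BC13, H2BC8 and H3C14: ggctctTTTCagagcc
Shared by H4C16, H4C2, H4C5 and H4C8: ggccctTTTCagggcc
Shared by H4C14, H4C15 and H4C9: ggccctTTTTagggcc
Shared by H2BC7 and H3C8: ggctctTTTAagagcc
H3C6: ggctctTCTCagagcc
H2AC11: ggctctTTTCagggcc
The H4 stem-loops have another stem than most H2A, H2B and H3 ones, and among the members H3C6 alone was found with its loop.

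Promoters separated the classes too. Each was read from RefSeq (GRCh38.p14) as 250 bases before to 50 after the start, and motifs were searched on both strands. The octamer ATTTGCAT, the site of OCT1, stood in 10 of 13 H2B promoters (76.9%), 7 of 11 H2A (63.6%), 1 of 11 H3 (9.09%) and in 0 of the 4 H1 and 10 H4 promoters, against 1.77% of 35116 promoters. CCAAT stood in every promoter of H1, H2A, H2B and H3 matched (100%) and in 2 of 10 H4 (20%), against 34.6% of all. The H3 promoter with the octamer, of H3C4, is the same window as that of H2AC7, so 1 sequence counts in both classes. Windows of neighbouring H2A and H2B genes overlap as well, as H2AC8 (26216671 to 26216970) and H2BC8 (26216639 to 26216938) do. Of the H2A genes with the octamer, H2AC7, H2AC8, H2AC11, H2AC14 and H2AC17 overlap an H2B window that holds it too. The same letters can therefore count in both classes, and the H2A and H2B shares are not separate evidence. TATAAA stood in 50% (H1, H4) to 72.7% (H3) of a class, against 11.5% of all. The 100 bases before the start of a pair of H2B genes that moved in opposite directions without histidine are shown, with CCAAT, octamer and TATAAA in capitals. H2BC10 fell and H2BC8 rose, each in a call that some alternatives ended, as given below, and both hold the octamer.
H2BC10, chr6:26272831-26272930, plus strand: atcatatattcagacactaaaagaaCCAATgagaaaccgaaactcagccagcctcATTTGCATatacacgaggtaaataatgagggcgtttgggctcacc
H2BC8, chr6:26216689-26216788, minus strand: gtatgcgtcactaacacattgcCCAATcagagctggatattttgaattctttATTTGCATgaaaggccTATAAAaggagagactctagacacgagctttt
Of 9 tested H2B genes with the octamer 2 rose and 2 fell without histidine on day 6, and of 3 without it 0 rose and 1 fell, against 13.3% and 16.5% of all rows, and nothing is read from counts this small. Matches are letters in a window and not tested sites.

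Across the whole series, the normalized counts of a library added up to between 13.575 M and 16.097 M, and 14425 to 16263 rows reached 10 per library. Original read depth is unknown. The sum of 18 T-lineage markers was 61301 to 81073 in all libraries, and that of 5 myeloid markers stayed between 1.80 and 36.8. Among genes of the B lineage, BLK, EBF1 and PAX5 summed on day 6 to 2003 to 2123 at 100%, 3018 and 3029 at 25% and 1331 to 1535 without histidine, and on day 9 to 1914 to 2145 at 100% and 2428 to 2640.4 at 25%, with no overlap with 100% in any of these. BLK and EBF1 made up nearly all of that sum, while PAX5, which defines B cells, reached at most 12.1. The part of these genes in the results below was not tested. KRT8, KRT18 and KRT19 summed to over 100 in 6 libraries: 100% replicates 1 and 2 and 50% replicates 1 and 2 on day 6, and 25% replicates 1 and 3 on day 9. In the other libraries that sum was at most 60.3.

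The spread between libraries of 1 group was wide. The median within-group SD on the log2 scale was 0.59 over the 51 tested members, against 0.27 over all rows tested, 0.14 over DNA replication genes and 0.30 over the left-out histones. In 7 of 9 groups the library with the highest sum of members was also the highest in 5.8S rRNA, an RNA without a poly(A) tail. On day 6 at 100%, replicate 3 stood apart: the sum of members was 13542 there, against 2732 in replicate 1 and 5697 in replicate 2, and 46 of the 51 tested members were highest in it. In the same 3 libraries 5.8S rRNA spanned 7.71-fold and the summed DNA replication genes 1.05-fold. Replicate 3 at 25% on day 9 was high in the same way, with a members' sum of 16728 against 5454 and 6939. In bulk RNA, fewer cells making a transcript and less of it per cell cannot be told apart.

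The H4 genes were summed first. On day 6 the H4 sum was 1309, 3131 and 9480.2 normalized counts at 100%, then 919 to 1060.0 at 50%, 8131 and 5232 at 25%, 448 to 571 at 12.5% and 731 to 810.4 without histidine. The libraries at 50%, 12.5% and no histidine were all below those at 100%, and the 25% libraries lay within their range. In percent of the 100% mean, H4 stood at 21.3, 144, 10.9 and 16.4 in that order of falling histidine. Without 100% replicate 3, the log2 ratio of H4 at 12.5% was −2.13 in place of −3.20.

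The other classes had a different order over the same groups. H2A stood at 52.7% of its 100% mean at 50% histidine, 149% at 25%, 67.5% at 12.5% and 131% without histidine. H3 stood at 42.2%, 143%, 69.7% and 126%, H2B at 60.4%, 122%, 46.1% and 96.9%, and H1 at 45.6%, 106%, 47.1% and 118%. For the groups without histidine all 4 of these sums overlapped the 100% libraries, whereas H2B at 12.5% and H2A and H3 at 50% lay wholly below them. The group mean thus did not fall step by step with histidine in any class. It was lower at 50%, higher at 25% and lower again at 12.5%. The 25% libraries of every class overlapped those at 100%, as did H1, H2A and H3 at 12.5% and H1 and H2B at 50%. The log2 ratio of H3 at 12.5% was 0 without 100% replicate 3. Without the keratin-high libraries, which leaves only replicate 3 at 100%, the log2 ratio at 25% was −0.578 for H1, −0.30 for H2B, −0.167 for H3, −0.505 for H4 and 0.066 for H2A. On day 9, H4 stood at 175% of its 100% mean at 50% histidine, 319% at 25% and 53.7% at 12.5%, and each of these overlapped the 100% libraries. H2A and H3 at 25% on day 9 lay wholly above 100%, at 191% and 187%.

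**Figure D1:**
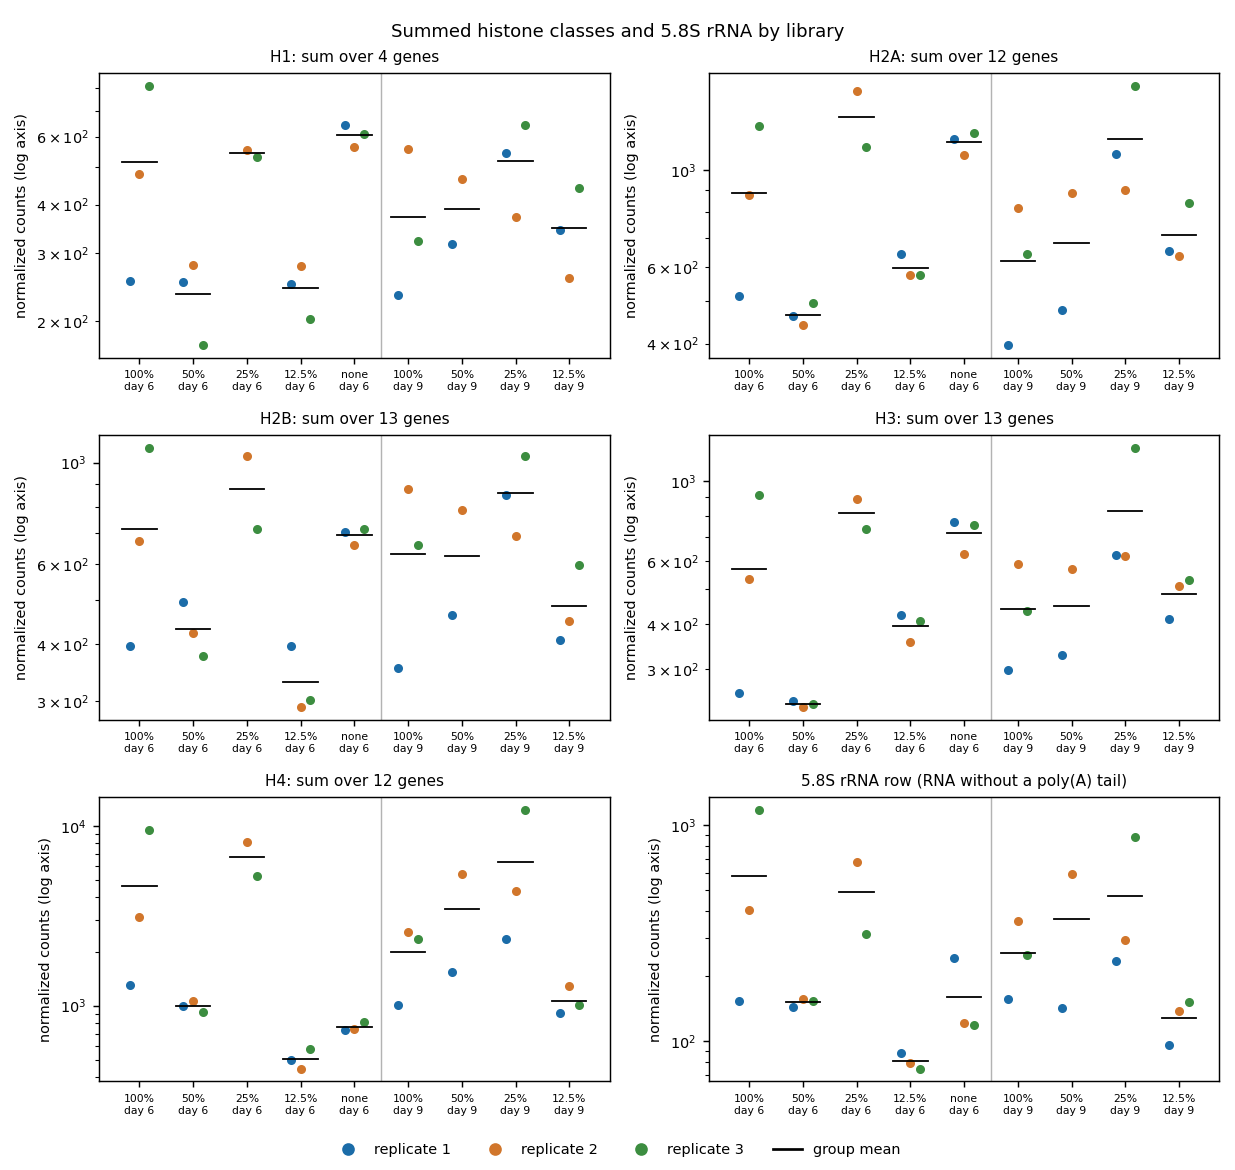
Sums of normalized counts over the members of each histone class and the 5.8S rRNA row (log axes) for every library, by histidine level and day; points are libraries coloured by replicate number and bars are group means. H4 at 12.5% on day 6 sat between 448 and 571, below the 100% libraries at 1309 to 9480.2.

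H4C3 made up much of the H4 sum. Without the most abundant member of each class, the log2 ratio to 100% was −1.76 at 12.5% and −0.991 without histidine for H4, and −2.774 and −1.846 for H1. Its share of H4 normalized counts, not corrected for length, was 56.1% to 79.3% at 100% on day 6 and 16.7% to 27.3% without histidine. The summed H4 counts other than H4C3 were 575, 1044 and 1961 at 100% and 589 to 609 without histidine, which overlap.

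At 50% histidine on day 6, no member passed the test. Of the 51, 48 had a negative change, 26 had an unadjusted p under 0.05, and the median was −0.98 against −0.01 over all rows. The share of all rows called was 0% in each direction, with 695 of 18799 rows at an unadjusted p under 0.05. With estimated library weights limma called 10 members, 1 up and 9 down. The 9 include H4C14 and H4C15, which have equal values. The share of all rows called in that fit is not given, so no shift beyond other rows is read from it. Without 100% replicate 3 the median was −0.55, and 0 members passed. With the 5.8S rRNA level of each library as a covariate it was −0.26, and 0 passed. In 18 of the 51 (35.3%) every 50% library was below every 100% library, against 3.88% of all rows. H4C3 stood at 453, 578 and 421 in these libraries, and H1-3 at 50.4, 39.5 and 32.4, below their 100% values given below.

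At 25% histidine on day 6, 1 of 51 members rose and 0 fell, against 6.79% and 6.92% of all rows, with a median of 0.63 against 0. It was H2BC7, an H2B gene, at 123 and 103 against 29.9, 40.4 and 83.5 (1.25 ± 0.39, adjusted p = 0.0321). Its 25% libraries were both above the 100% libraries. Without 100% replicate 3, 9 members rose and 0 fell, and without any other 1 of these 5 libraries 0 passed. Here and below, member counts under alternatives stand without the share of all rows called in the same fit. They show how far the counts vary, and not a shift of the members beyond other rows.

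At 12.5% histidine on day 6, 22 of 51 members fell and 2 rose. Among all rows 15.3% fell and 11.7% rose. The median change was −1.19, against 0.04 over all rows. By class, 7 of 12 H4 genes fell, 3 of 4 H1, 5 of 12 H2B, 4 of 10 H2A and 3 of 13 H3, and the 2 that rose were H3C6 and H4C4. Libraries at 12.5% were all below those at 100% for 23 members (45.1%), against 20.7% of all rows.

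Without any histidine the counts were 15 down and 8 up, against 16.5% and 13.3% of all rows, with a median of −0.28 against 0.03. This comparison shares its 100% libraries with the one at 12.5%, so the changes are set side by side below. H4 and H1 genes held most of the falls: 6 of 12 H4 and 3 of 4 H1, against 3 of 12 H2B, 2 of 13 H3 and 1 of 10 H2A. The genes that rose were H1-2, H2AC15, H2AC19, H2BC6, H2BC8, H3C6, H3C10 and H4C4.

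Both counts depended on which libraries were compared. Without 100% replicate 3, 16 members fell and 3 rose at 12.5% (median −0.75), and 8 fell and 10 rose without histidine, where the median became 0. Without no-histidine replicate 1, 11 fell and 7 rose there. With the 5.8S rRNA level of each library as a covariate, 5 fell (H1-3, H2BC13, H4C1, H4C13, H4C3) and 7 rose at 12.5%, with a median of 0.13, and 7 fell and 16 rose without histidine. 5.8S rRNA itself fell at 12.5% (−2.36 ± 0.57, adjusted p = 0.00309) and its change without histidine was −1.46 (adjusted p = 0.0557). The counts also depended on the covariate. With the mean log2 level of the tested RNAs without a poly(A) tail in its place, 16 fell and 5 rose at 12.5% (median −0.32). In that fit 12 fell and 12 rose without histidine (median 0.13). With the 4 keratin-high day 6 libraries left out, which leaves 1 library at 100%, 25 fell and 0 rose at 12.5%, and 15 fell and 3 rose without histidine. Of the 8 that rose there, H2AC15, H2BC6 and H3C6 still passed, while H3C10 had 0.36 (adjusted p = 0.635) and H4C4 3.10 (adjusted p = 0.0581).

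**Figure D2:**
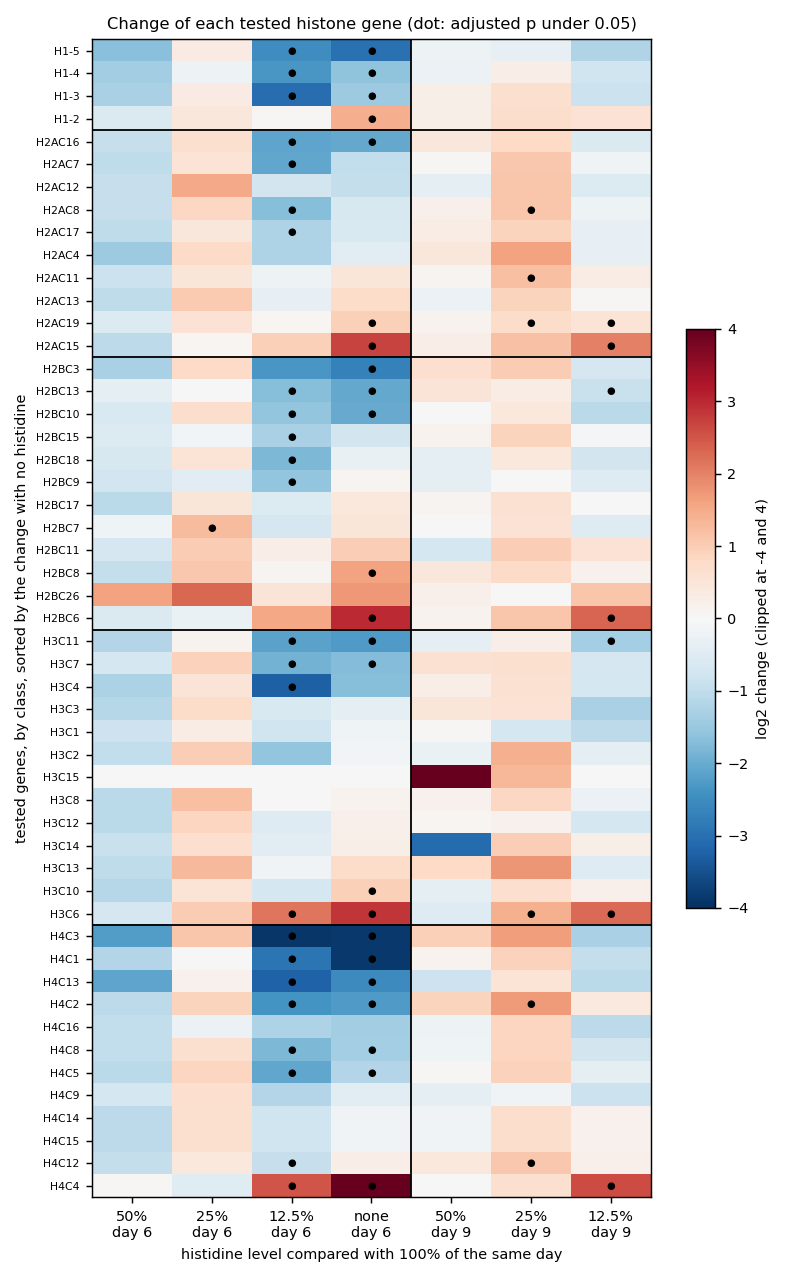
Heat map of the change in log2(normalized count + 1) against 100% of the same day for each tested member (rows, by class) at each histidine level and day (columns), red for higher, blue for lower and clipped at −4 and 4; a dot marks an adjusted p under 0.05. In the no-histidine column H4C3, H4C1 and H4C4 stand at −3.87, −3.86 and 4.09.

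Linker H1 genes split without histidine, in calls that some alternatives ended. H1-2 (chromosome 6, 26055740 to 26056470, minus strand, a single exon) stood at 115, 215 and 271 at 100%, 193, 227 and 170.2 at 12.5% and 557, 466 and 530.0 without histidine. Only the no-histidine libraries were apart from the 100% ones. The change there was 1.45 ± 0.27 (adjusted p = 0.000241), and at 12.5% it was 0.05 (adjusted p = 0.917). The rise was 0.93 (adjusted p = 0.0547) without the keratin-high libraries.

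H1-4, another linker gene, stood at 75, 159 and 269.6 at 100%, 32.3, 30.5 and 24.2 at 12.5% and 53.1, 57.8 and 34.7 without histidine. It fell at 12.5% (−2.32 ± 0.44, adjusted p = 0.000399) and without histidine (−1.62 ± 0.44, adjusted p = 0.00705). Without 100% replicate 3 the latter was −1.19 (adjusted p = 0.0663). H1-3 stood at 51.1, 86.6 and 219 at 100%, 16.2, 11.3 and 7.36 at 12.5% and 34.0, 32.9 and 40.8 without histidine. Every library at low histidine was below the 100% ones. Its changes were −3.05 ± 0.44 (adjusted p = 1.73e-05) and −1.45 ± 0.44 (adjusted p = 0.0139), the latter being −0.88 (adjusted p = 0.139) without 100% replicate 3. H1-5 was low, at 12.5 to 50.8 at 100% and 0 to 5.98 without histidine. Its change there was −2.449 (limma, adjusted p = 0.05) without 100% replicate 3. With the 5.8S rRNA covariate H1-2 still rose without histidine, and none of H1-3, H1-4 and H1-5 passed. With the covariate of RNAs without a poly(A) tail H1-2 rose and H1-3, H1-4 and H1-5 fell there.

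Among H2A genes, H2AC19 (chromosome 1, 149851061 to 149851594) was the most abundant by normalized count. It stood at 248, 305 and 369.9 at 100%, 352, 301 and 306 at 12.5% and 612, 539 and 617 without histidine. It rose without histidine (0.95 ± 0.19, adjusted p = 0.000496), where its libraries were above all others of these groups. This change was 0.67 (adjusted p = 0.0882) without the keratin-high libraries. H2AC15 stood at 12.8, 23.6 and 37.8, then 38.2, 65.3 and 34.7, then 152, 147 and 160.3 in the same order. It rose without histidine (2.71 ± 0.42, adjusted p = 2.3e-05), with no overlap, and its change at 12.5% was 0.94 (adjusted p = 0.103).

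H2AC8 moved the other way at 12.5%. It stood at 64.9, 153 and 311 at 100%, 41.3, 37.3 and 54.6 at 12.5% and 89.9, 86.4 and 106 without histidine. It fell at 12.5% (−1.71 ± 0.38, adjusted p = 0.00175), with a change of −0.63 (adjusted p = 0.238) without histidine. The 12.5% libraries were below all 100% libraries, and those without histidine lay within them.

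Among H2B genes, H2BC13 (chromosome 6, 27807479 to 27807929, minus strand, a single exon) fell in both comparisons. It stood at 87.5, 96.7 and 154 at 100%, 35.2, 27.0 and 36.7 at 12.5% and 31.2, 28.4 and 19.6 without histidine. Every library at low histidine was below the 100% libraries. Its changes were −1.71 ± 0.28 (adjusted p = 7.04e-05) and −2.04 ± 0.28 (adjusted p = 4.1e-06). H2BC9 stood at 71.4, 139.7 and 196, then 48.3, 31.5 and 46.1, then 163, 119 and 128. It fell at 12.5% (−1.58 ± 0.33, adjusted p = 0.000879), and without histidine its libraries lay within the 100% range (0.12, adjusted p = 0.832).

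H2BC8 and H2BC10, whose promoters are shown above, differed in direction without histidine. H2BC8 stood at 23.5, 35.3 and 59.3 at 100% and 129, 92.1 and 122 without histidine (1.60 ± 0.39, adjusted p = 0.00287). H2BC10 stood at 17.1, 48.0 and 78.1 at 100% and 5.36, 7.84 and 17.6 without histidine (−2.02 ± 0.58, adjusted p = 0.00952). The H2BC8 libraries did not overlap, and 1 H2BC10 library without histidine reached the lowest at 100%. The fall of H2BC10 missed the threshold without 100% replicate 3 (−1.55, adjusted p = 0.0732), without no-histidine replicate 1 (−1.69, adjusted p = 0.0546) and with the 5.8S rRNA covariate (−1.12, adjusted p = 0.138). The rise of H2BC8 missed it without the keratin-high libraries (0.92, adjusted p = 0.205). H2BC6 stood at 7.67, 12.2 and 1.37 at 100% and 48.0, 45.4 and 56.9 without histidine, and it rose (2.98 ± 0.79, adjusted p = 0.00542).

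H3C6 (chromosome 6, 26224178 to 26227473, plus strand, at most 2 exons) was the H3 gene that rose in both comparisons. It stood at 24.6, 24.2 and 72.4 at 100%, 215, 123 and 147 at 12.5% and 285, 219 and 290.2 without histidine. All libraries at low histidine were above those at 100%. The changes were 2.13 ± 0.35 (adjusted p = 8.55e-05) and 2.86 ± 0.35 (adjusted p = 9.26e-07). The former was 1.11 (adjusted p = 0.0836) without the keratin-high libraries.

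H3C14, the other abundant H3 gene by normalized count, stood at 76.6, 117 and 153 at 100%, 80.6, 72.2 and 97.7 at 12.5% and 147, 126 and 122 without histidine. Its groups overlapped, with changes of −0.42 (adjusted p = 0.753) and 0.23 (adjusted p = 0.869). H3C14 and H3C15 share an identical listed transcript, so reads can be split between their rows. H3C4 stood at 41.5, 111 and 164 at 100% and at 0, 24.8 and 33.6 at 12.5%, a fall (−3.26 ± 0.84, adjusted p = 0.00533) that includes a library listed at 0. Without that library, replicate 1, the change was −1.63. H3C11 fell in both comparisons, from 24.5 to 66.5 at 100% to 5.03 to 9.45 at 12.5% and 3.93 to 9.65 without histidine.

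H4C3 (chromosome 6, 26103933 to 26104337, plus strand, a single exon) had the largest fall at 12.5%. It stood at 734, 2087 and 7519.6 at 100%, 118, 162 and 182 at 12.5% and 122, 134 and 222 without histidine. Every library at low histidine was below the lowest at 100%, which themselves spanned 10.2-fold. The changes were −3.89 ± 0.68 (adjusted p = 0.000161) and −3.87 ± 0.68 (adjusted p = 0.000104). Without 100% replicate 3 they were −3.025 (adjusted p = 0.00212) and −3.001 (adjusted p = 0.0015).

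H4C1 (chromosome 6, 26021649 to 26022050, plus strand, a single exon) stood at 88.5, 134 and 255 at 100%, 16.1, 13.5 and 27.3 at 12.5% and 5.40, 10.7 and 12.4 without histidine. Neither group at low histidine overlapped 100%. The changes were −2.93 ± 0.41 (adjusted p = 1.19e-05) and −3.86 ± 0.41 (adjusted p = 9.37e-08). H4C2 stood at 22.4, 36.9 and 87.2, then 7.03, 5.60 and 9.45, then 5.38, 10.7 and 8.29, and fell in both comparisons (−2.38 ± 0.46, adjusted p = 0.00043, and −2.27 ± 0.46, adjusted p = 0.000478).

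H4C5 stood at 139, 265 and 595 at 100%, 93.7, 43.8 and 69.2 at 12.5% and 106, 139 and 127 without histidine. It fell at 12.5% (−2.07 ± 0.41, adjusted p = 0.000508). The fall without histidine (−1.18 ± 0.41, adjusted p = 0.0309) overlapped the 100% libraries and missed the threshold when 100% replicate 2 (−1.21) or 3 (−0.63) or no-histidine replicate 1 (−1.07) or 3 (−1.20) was left out. H4C4 went the other way at low values. It was listed at 0, 0 and 1.81 at 100%, 13.2, 3.39 and 7.40 at 12.5% and 27.1, 16.7 and 27.1 without histidine (adjusted p = 0.0244 and 0.000408). It passed the filter only through groups where it was high, and its call at 12.5% ended without 100% replicate 1 or 2 or 12.5% replicate 1 or 3. H4C14 and H4C15 have equal values in all libraries and share a listed transcript, so they hold 1 measurement. Counts of members and sums of H4 nevertheless include both rows.

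With the 5.8S rRNA covariate, the falls at 12.5% of H1-4 (−1.18, adjusted p = 0.0893), H2AC8 (−0.47, adjusted p = 0.35), H2BC9 (−0.60, adjusted p = 0.188), H4C5 (−0.72, adjusted p = 0.144), H4C2 (−1.16, adjusted p = 0.0952) and H3C4 (−1.87, adjusted p = 0.229) missed the threshold. With the covariate of RNAs without a poly(A) tail each of these falls passed.

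**Figure D3:**
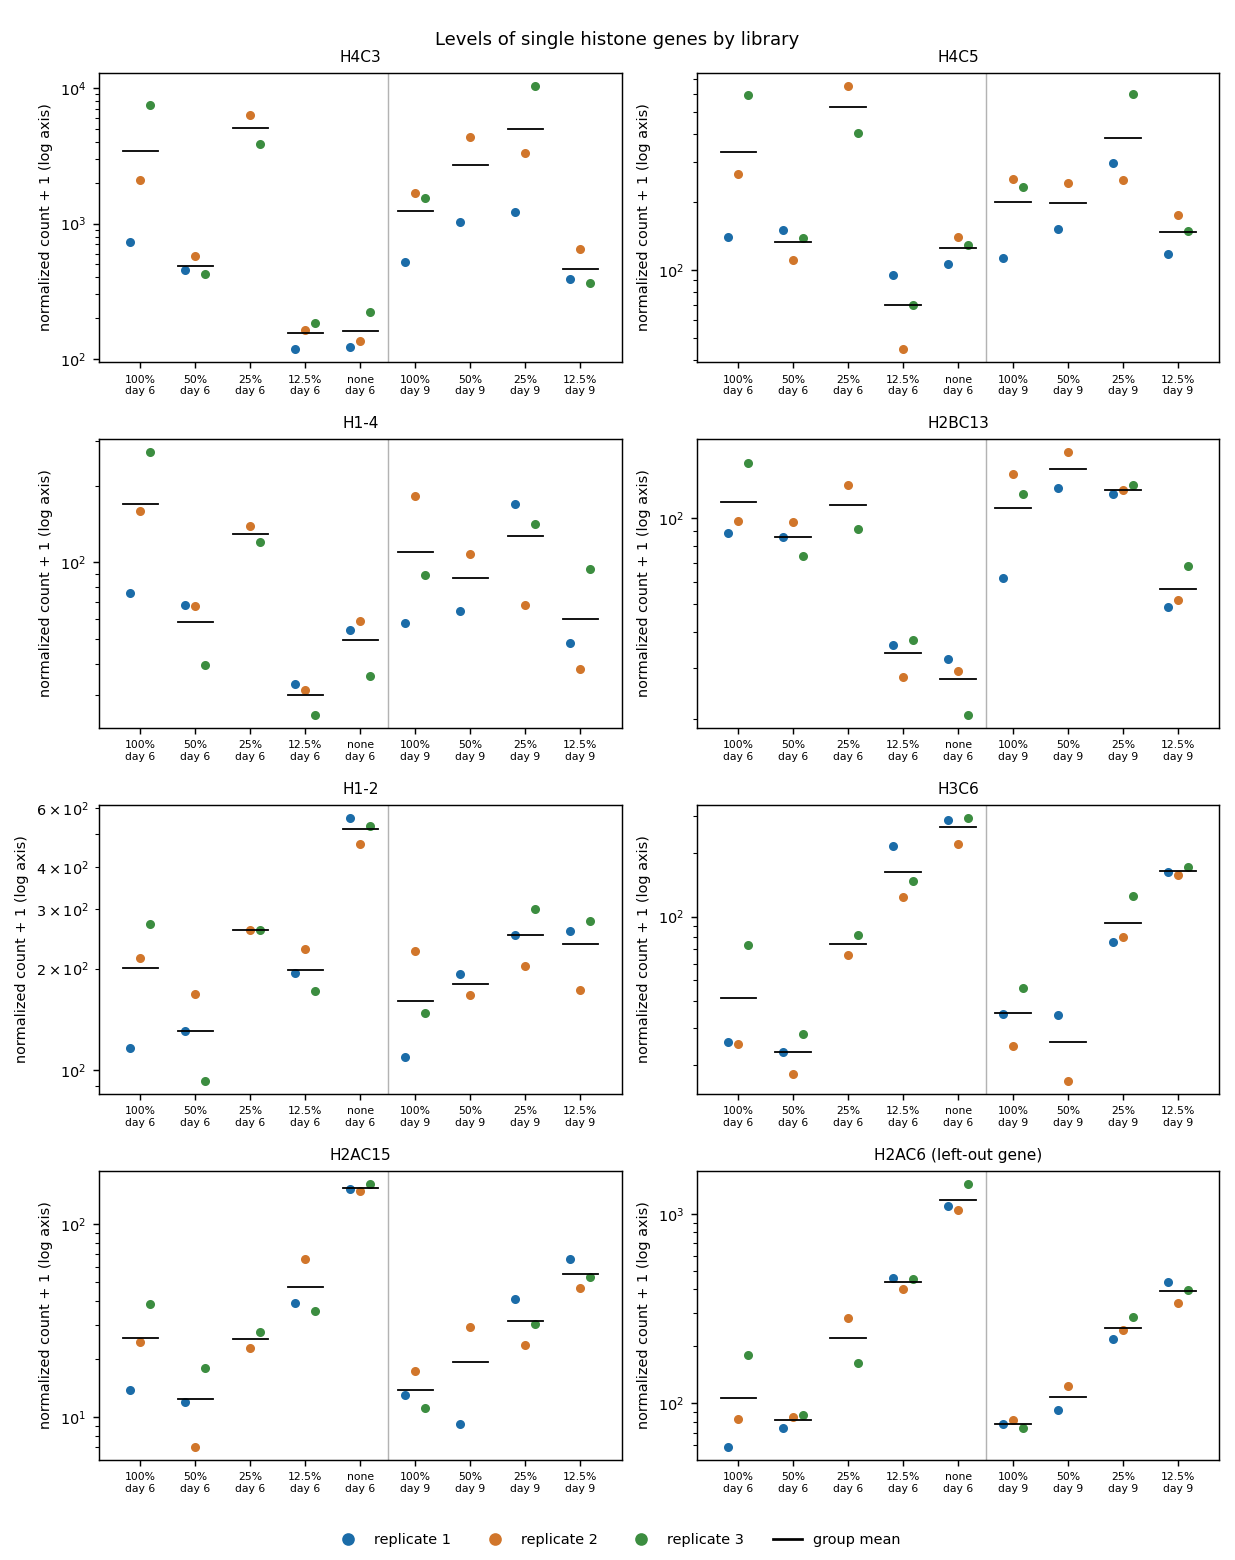
Normalized count + 1 (log axes) of 7 members and the left-out gene H2AC6 in every library, by histidine level and day; points are libraries coloured by replicate number and bars are group means. H4C3 and H2BC13 are lower at 12.5% on day 6 than in any 100% library of that day, and H3C6 and H2AC6 are higher.

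No histidine was also set against 12.5% on day 6, which compares groups that share no library. Of the 51 members, 10 rose and 0 fell, against 7% and 8.26% of all rows, with a median of 0.70 against −0.01. All no-histidine libraries were above all 12.5% libraries for 27 members (52.9%), against 13.1% of all rows. The risers were 4 H2B genes (H2BC7, H2BC8, H2BC9, H2BC18), 2 H1 (H1-2, H1-3), 2 H2A (H2AC15, H2AC19), H3C10 and H4C12. H2BC9 rose by 1.70 ± 0.33 (adjusted p = 0.000864), H1-2 by 1.40 ± 0.27 (adjusted p = 0.000999) and H3C10 by 1.64 ± 0.35 (adjusted p = 0.00216).

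H4C12 rose by 1.17 ± 0.34 (adjusted p = 0.0192), and H4C3 (0.02, adjusted p = 0.99), H4C1 (−0.93, adjusted p = 0.13) and H4C5 (0.90, adjusted p = 0.149) did not pass. The call of H4C12 ended without 12.5% replicate 2 (1.19, adjusted p = 0.0518) or no-histidine replicate 3 (1.00, adjusted p = 0.102). The level of 5.8S rRNA was 88.2, 79.8 and 74.8 at 12.5% and 242, 121 and 119.6 without histidine, so it too was higher without histidine in each library. With it as a covariate 9 members rose and 1, H4C1, fell. Without no-histidine replicate 3, 6 rose.

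On day 9 at 50% histidine, 0 members passed, with 2 at an unadjusted p under 0.05 and a median of 0.11 against 0.01, while 0.00532% of all rows fell, 0% rose and 906 rows had an unadjusted p under 0.05. With H3C14 listed at 0 in 50% replicate 1, its partner row H3C15 held 57.0 there. The sum of the 2 rows was 57.0 and 113 at 50%, against 62.8 to 98.2 at 100%.

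At 25% on day 9, 6 members rose and 0 fell, against 9.4% and 8.76% of all rows, with a median of 0.80 against 0. They were H2AC8, H2AC11, H2AC19, H3C6, H4C2 and H4C12. H3C6 stood at 74.8, 79.1 and 124 against 33.8, 23.5 and 45.3 at 100% (1.42 ± 0.35, adjusted p = 0.00545). H4C2 stood at 49.7, 50.8 and 139 against 13.9, 32.6 and 20.3 (1.71 ± 0.46, adjusted p = 0.0105). The 25% libraries of both genes were above those at 100%, and H4C3, at 1221, 3338 and 10309 against 519, 1682 and 1531, overlapped (1.66, adjusted p = 0.0988).

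Single libraries decided that count. Without 100% replicate 1 or without 25% replicate 3, 1 member rose, without 100% replicate 3, 3 rose, and without the keratin-high libraries 0 did. H4C2 then changed by 1.42 (adjusted p = 0.0616), 1.22 (adjusted p = 0.0901) without 25% replicate 3, and 1.24 (adjusted p = 0.245) without the keratin-high libraries. H3C6 missed the threshold in the last of these (1.23, adjusted p = 0.084).

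At 12.5% on day 9, 5 members rose and 2 fell, against 9.35% and 11.5% of all rows, with a median of −0.37 against 0.03. H3C6, at 162, 156 and 171, rose by 2.27 ± 0.35 (adjusted p = 5.47e-05), and its libraries were all above 100%. H2AC15 stood at 64.8, 45.8 and 52.1 against 12.0, 16.4 and 10.1 at 100% (2.01 ± 0.42, adjusted p = 0.00123). The other risers were H2AC19 (0.55, adjusted p = 0.0471), H2BC6 (2.32, adjusted p = 0.0385) and the low H4C4.

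H2BC13 and H3C11 fell. H2BC13 stood at 48.1, 51.0 and 67.3 against 61.0, 142 and 121, which overlap (−0.88 ± 0.28, adjusted p = 0.0257). It missed the threshold without 100% replicate 2 (−0.64) or 3 (−0.75) or 12.5% replicate 1 (−0.78) or 2 (−0.82). H3C11 fell by 1.36 on the log2 scale (SE 0.46, adjusted p = 0.0363), and missed the threshold when any 1 library other than 100% replicate 1 was left out (−1.473 to −1.027). H4C3, at 387, 642 and 360.2, overlapped 100% (−1.30 ± 0.68, adjusted p = 0.193). H2AC19 missed the threshold in 5 of the 6 fits that left out 1 library, and H2BC6 likewise. The counts over those fits ran from 2 to 7 members, the lowest, 2 up and 0 down, without 12.5% replicate 2. Without 100% replicate 2 it was 4 up and 0 down, and without 100% replicate 3 or 12.5% replicate 1 it was 3 up and 0 down. Without 12.5% replicate 3 it was 2 up and 2 down, and without 100% replicate 1 it was 3 up and 4 down.

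The days were compared through groups that share no library. The 2 members that rose at 12.5% on day 6, H3C6 and H4C4, were among the 5 on day 9 (100% of the first list, 40% of the second). H4C4 passed the filter only through groups at low histidine and reached 10 in no 100% library, so only high values there let it be tested. Its part in this overlap is therefore not read as support, which leaves H3C6 alone. Of the 22 that fell on day 6, H2BC13 and H3C11 fell on day 9 (9.09% and 100%). As 22 of the 51 members fell on day 6, 2 shared falls say little, and the overlap over all rows was not counted. With the 5.8S rRNA covariate 0 members fell and 7 rose at 12.5% on day 9. With the covariate of RNAs without a poly(A) tail 7 fell and 5 rose. The difference between days in the change at 12.5% was tested itself: 0 of 51 members passed, 17 had an unadjusted p under 0.05, and the median was 0.88. Of all 18799 rows 0.0426% were higher and 0.0213% lower on day 9, 1887 had an unadjusted p under 0.05, and the median was 0.01. With library weights 1 passed. At 50% and 25% the same test called 0 members each, with 11 and 0 at an unadjusted p under 0.05, against 802 and 1034 of all rows. It called 0% of rows in both directions at 50%, and 0% and 0.00532% at 25%.

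**Figure D4:**
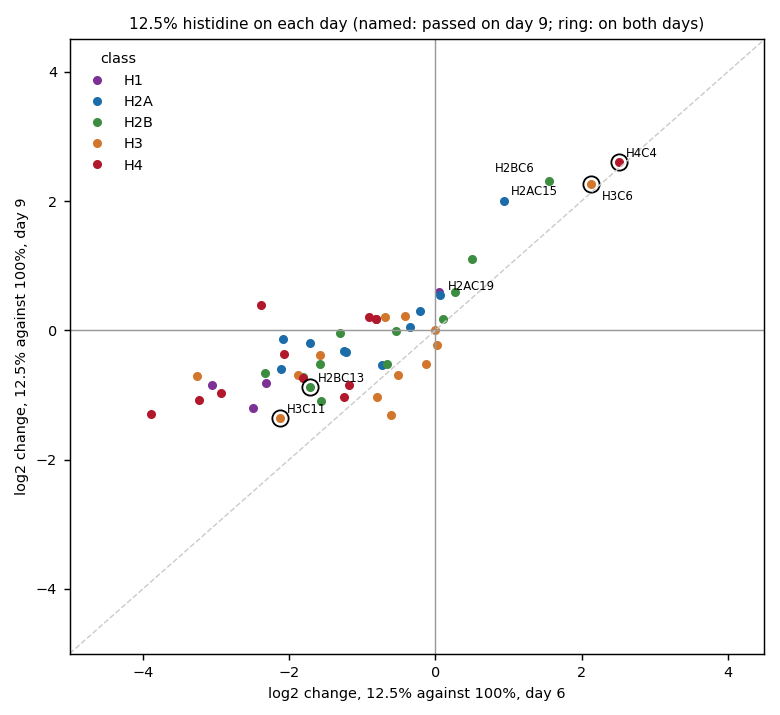
Change against 100% on day 6 (horizontal) and on day 9 (vertical) at 12.5% histidine for the tested members, on the log2(normalized count + 1) scale, coloured by class; names mark members that passed on day 9, rings those that passed on both days, and the dashed line equal change. H3C6 lies at 2.13 and 2.27, and H4C3 at −3.89 and −1.30.

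At 100% histidine, day 9 against day 6 called 0 of 51 members, with 3 at an unadjusted p under 0.05 and a median of −0.28 against 0. Among all rows 1.1% rose and 1.07% fell, and 2936 had an unadjusted p under 0.05. H4C1 had the lowest change, from 88.5, 134 and 255 on day 6 to 53.3, 81.5 and 75.1 on day 9 (−1.06 ± 0.41, adjusted p = 0.185). A slope per halving of histidine from 100% to 12.5% fell for 17 members and rose for 3 on day 6, against 15.9% and 13% of all rows, and fell for 1 and rose for 6 on day 9, against 14.4% and 12.9%. Without 100% replicate 3 the day 6 slope fell for 7 and rose for 5, without 100% replicate 2 it fell for 12 and rose for 1, and without 12.5% replicate 2 it fell for 11 and rose for 2. The day 9 slope passed for 4 members without 100% replicate 3 or 12.5% replicate 3.

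Members were also grouped by how their transcripts are listed at the 3′ end. These groups were chosen with the values known and are a description. In GENCODE 29, 20 of the 54 members have a transcript that runs 100 bases or more past the stem-loop, 4 end close behind it, 23 are listed as coding sequence only, 4 have no stem-loop in the listed transcripts and 3 matched none. Of the 19 tested members listed past the stem-loop, 4 rose and 2 fell without histidine, with a median of 0.12. Of the 29 not listed past it, 3 rose and 13 fell, with a median of −0.97, while 13.3% of all rows rose and 16.5% fell. At 12.5% on day 6 the counts were 1 up and 5 down of 19 (median −0.69), and 1 up and 17 down of 29 (median −1.71), against 11.7% up and 15.3% down among all rows. Of the 29, 21 are listed as coding sequence only, so where they end is not listed. Without histidine 3 of these 21 rose and 9 fell (median −0.97). H3C6 and H2BC8, which rose, are listed 1862 and 1059 bases past the stem-loop, whereas H2AC15, which also rose, is listed as coding sequence only. Of the left-out genes that rose there, H2AC6 is listed 1128 bases past it, H2BC5 39 bases, and H2BC12 as coding sequence only. What the reads of each row cover was not tested.

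**Figure D5:**
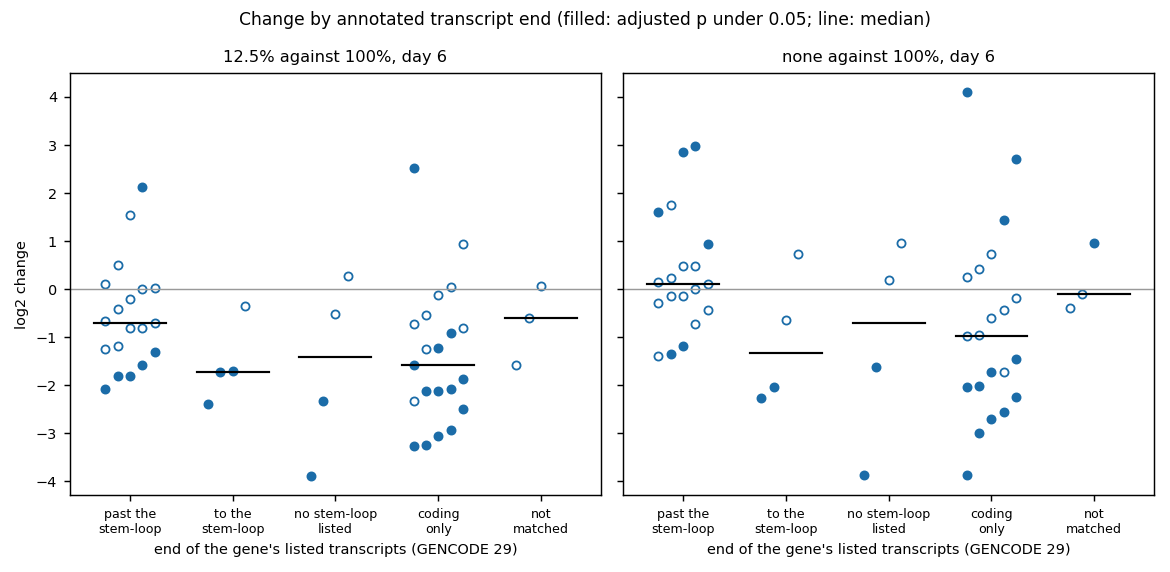
Change at 12.5% (left) and without histidine (right) on day 6 for each tested member, on the log2(normalized count + 1) scale, grouped by where the listed transcripts end; filled points passed an adjusted p of 0.05 and lines are medians. Without histidine the group listed past the stem-loop has a median of 0.12, and the 29 matched members outside it together one of −0.97.

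Many H2A and H2B genes are transcribed from a shared promoter in opposite directions. In RefSeq, 10 such pairs were found, and in 6 both genes were tested members, with starts 194 to 248 bases apart. Without histidine on day 6 the partners had opposite signs in 5 of the 6. H2AC15 rose by 2.71 while H2BC15 had −0.72, H2BC13 fell by 2.04 while H2AC13 had 0.74, and H2BC8 rose by 1.60 while H2AC8 had −0.63. The other 3 pairs held no called gene. The difference between partners was not tested. The RefSeq spans of 6 members overlap another histone gene, counted without regard to strand: H2AC7, H2AC19, H3C4, H3C15, H4C9 and H4C15. H2AC7 and H3C4 overlap each other on the minus strand. How well reads of overlapping genes were told apart was not tested.

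The left-out histone genes were measured beside the members. Of the 4 tested, 3 rose and 0 fell without histidine, with a median of 1.96, and 2 rose and 0 fell at 12.5% on day 6 (median 0.53). The shares of all rows were 13.3% up and 16.5% down without histidine, and 11.7% up and 15.3% down at 12.5%. H2AC6 stood at 58.1, 81.5 and 179 at 100% and 1099, 1045 and 1439 without histidine, with no overlap (3.63 ± 0.26, adjusted p = 2.64e-10). H2BC12 rose from 238, 281 and 399 to 1391, 1374 and 1506 (2.25 ± 0.17, adjusted p = 7.31e-10), and H2BC5 from 149.8, 166 and 252 to 576, 541 and 653 (1.67 ± 0.17, adjusted p = 8.96e-08). H2BC4 overlapped 100% (0.75, adjusted p = 0.307), and H2BC21 was near 0 and not tested. At 12.5%, H2BC12 changed by 1.00 (adjusted p = 0.000156), and by 0.58 (adjusted p = 0.0693) without the keratin-high libraries.

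At 12.5% on day 9 the same 3 left-out genes rose, H2AC6 by 2.33 (adjusted p = 1.11e-06), H2BC12 by 1.40 (adjusted p = 3.81e-06) and H2BC5 by 0.61 (adjusted p = 0.0136). In that comparison 9.35% of all rows rose. H2BC5 missed the threshold without 100% replicate 1 (0.51) or 12.5% replicate 1 (0.53).

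The genes whose products transcribe histone genes and process their mRNA were read next. Of 22 tested genes of histone transcription and 3′ end processing, 3 rose and 5 fell at 12.5% on day 6 and 3 rose and 11 fell without histidine. The shares of all rows were 11.7% up and 15.3% down at 12.5%, and 13.3% up and 16.5% down without histidine. SLBP, which binds the stem-loop and is itself made in S phase, stood at 2862, 2734 and 2917 at 100%, 1813, 1984 and 2436 at 12.5% and 1557, 1735 and 1678 without histidine. It fell in both (−0.46 ± 0.10, adjusted p = 0.00115, and −0.78 ± 0.10, adjusted p = 1.5e-06), with no overlap. NPAT, the transcriptional coactivator of the clusters, stood at 663, 643 and 668, then 842, 788 and 750.2, then 714, 611 and 532 (0.27, adjusted p = 0.0988, and −0.10, adjusted p = 0.585).

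Among regulators of entry into S phase, CCNE1, the cyclin whose kinase acts on NPAT, changed by −0.48 and −1.57 and E2F1 by −0.73 and −1.16. Without the keratin-high libraries CCNE1 at 12.5% was at −0.34 (adjusted p = 0.427). CASP8AP2, a histone locus body protein, fell without histidine by 3.19 on the log2 scale, with replicate 1 at 1.05, and its change was −1.05 without that library, where it missed the threshold (adjusted p = 0.171).

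Genes of DNA copying fell in most cases. Of 32 DNA replication genes 26 fell and 0 rose at 12.5% on day 6 (median −0.64) and 31 fell and 0 rose without histidine (median −1.21). The shares of all rows were 15.3% down and 11.7% up at 12.5%, and 16.5% down and 13.3% up without histidine. TYMS, which makes thymidylate, changed by −1.47 and −2.17, MCM2, a helicase subunit, by −1.66 and −1.85, and POLE2, a polymerase subunit, by −0.72 and −1.82. POLE2 at 12.5% missed the threshold without the keratin-high libraries (−0.80, adjusted p = 0.121). At 12.5% on day 9, 20 of the 32 fell and 0 rose (median −0.40), against 11.5% and 9.35% of all rows. From 12.5% to no histidine on day 6, 23 of these fell and 0 rose, in the comparison where 10 histone members rose and 0 fell. There 8.26% of all rows fell and 7% rose.

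Of 24 histone chaperones, which hand histones to DNA, 9 fell and 1 rose at 12.5% and 13 fell and 1 rose without histidine. The shares of all rows were 15.3% down and 11.7% up, then 16.5% down and 13.3% up. ASF1B changed by −0.75 and −1.56 and CHAF1B, of the CAF-1 complex, by −1.15 and −1.47. Of 9 tested replacement histones, 5 fell and 1 rose, then 6 fell and 1 rose, against the same shares of all rows. H2AZ1 changed by −0.69 and −0.80, and CENPA, the centromeric H3, by −0.72 and −1.37.

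Of 43 tested other RNAs without a poly(A) tail, 13 fell and 5 rose at 12.5% on day 6 (median −0.24), against 15.3% and 11.7% of all rows. Without histidine 5 fell and 3 rose, against 16.5% and 13.3%, and at 12.5% on day 9 it was 1 and 1, against 11.5% and 9.35%. In the last 2 comparisons the counts lay below the shares over all rows. RN7SL1 and RN7SL2, the RNAs of the signal recognition particle, fell at 12.5% (−1.76, adjusted p = 0.00574, and −1.59, adjusted p = 0.013), and without 100% replicate 3 both missed the threshold (−1.33, adjusted p = 0.0521, and −1.17, adjusted p = 0.0942).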

How the data were processed

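Libraries were strand-specific and came from total RNA, as the labels' protocols state. The authors' deposited table gives a signal per gene, a count normalized with DESeq2 (1.44.0). The submitters' processing notes also list kallisto (0.50.1), FastQC (0.11.9) and the build GRCh38. For poly(A) selection or rRNA depletion, annotation release and strand setting, the sources used here give nothing. Quantifying transcripts splits reads between near-identical histone copies, and size factors remove differences in total RNA per cell. Whole reads could not be recovered (with a best step per library, 37.82% to 76.2% of values below 20 came out whole to within 0.05), so no count test was run and counting depth is unknown.

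Groups follow the titles. Rows reaching 10 in 2 or more libraries were tested, 18799 of 31919. Log2 values with a pseudocount of 1 went into limma (3.58.1, R 4.3.3): 1 mean for each of 9 groups, 16 residual degrees of freedom, a variance trend over the mean, and two-sided p-values. The procedure was tested on simulated data. Figures used matplotlib (3.10.9, Python 3.11.15).

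The members and gene lists were chosen with earlier results of these data known. Genes were named with full statistics by rule: the 2 most abundant tested members of each class, the 3 called members with the largest change whose higher group averaged 50 or more in 4 comparisons, the left-out genes, SLBP, NPAT, up to 4 of each list and 5.8S rRNA. H1-5, H2AC15 on day 6, H2BC7, H2BC8, H2BC10, H3C10, H3C11, H4C4 and H4C12 were added after their values were seen. Alternatives changed the pseudocount, filter, scaling, trend, weights, replicate block, covariates or libraries.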

Additional observations from a re-analysis of the deposited data

How the results depend on the processing

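Under the alternatives 245 counts of called members stayed within 1.5 times the reported count and 45 did not. Those 245 include counts that stayed at 0 where 0 members were reported, to which no ratio applies. Among class totals, 294 moved by less than the spread between replicates and 46 by more. Of the calls of single genes 3969 held, 561 missed the threshold and 2 reversed. Those are SCARNA13, at 0.16 (adjusted p = 0.94), and H4C12, at 0.20 (adjusted p = 0.658), both at 12.5% on day 6 with the 5.8S rRNA covariate. Where a value moved, the cause was not tested. The spread between 100% libraries and the unknown read depth limit what these comparisons can show.

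Counts of called members moved as follows. With the 5.8S rRNA covariate there were 4 at 25% and 12 at 12.5% on day 6, and 15 for the day 9 slope. With the covariate of RNAs without a poly(A) tail there were 10 at 25% on day 6, 3 at 25% and 12 at 12.5% on day 9, and 11 for the day 9 slope. Library weights gave 10 at 50% and 4 at 25% on day 6 and 1 for the day difference at 12.5%. Without a filter there were 2 at 25% on day 6, 1 at 50% and 4 at 12.5% on day 9, and 1 for day 9 against day 6 at 100%. A pseudocount of 8 gave 2 at 25% on day 6 and 1 at 50% on day 9, and no variance trend gave 0 and 1. With only the compared groups there were 0 at 25% on day 6 and 2 at 12.5% on day 9. Without keratin-high libraries there were 0 at 25% on either day and 4 for the day 9 slope.

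Over all rows tested, same-numbered libraries of a day did not deviate together. Of 41 pairs 0 correlated above 0.1, with a range of −0.128 to 0.079. That check does not cover the members alone. On day 9 replicate 1 had the lowest sum of members in every group, and the lowest 5.8S rRNA too. On day 6 the replicate number of the lowest library differed between groups. With the replicate block, 0 members passed at 25% on day 6, 25 at 12.5% and 22 without histidine, and 8 at 25% on day 9.

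Leaving out 1 library at a time, the counts ran from 0 to 9 at 25% on day 6, 18 to 29 at 12.5%, 18 to 25 without histidine and 6 to 9 for no histidine against 12.5%. They ran from 0 to 1 at 50%, 1 to 8 at 25% and 2 to 7 at 12.5% on day 9, 0 to 1 for the day difference at 50%, 12 to 21 for the day 6 slope and 4 to 8 for the day 9 slope.

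Log2 ratios of class totals to 100% moved without the keratin-high libraries. On day 6, in the order 50%, 25%, 12.5%, none, they became −2.226, −0.578, −1.74 and −0.421 for H1, −1.345, 0.066, −1.078 and −0.123 for H2A, −1.515, −0.30, −1.707 and −0.635 for H2B, −1.93, −0.167, −1.203 and −0.351 for H3 and −3.367, −0.505, −4.228 and −3.641 for H4. At 25% on day 9 they became −0.001 for H1 and 0.54 for H2A. Without the most abundant member H1 became −2.774 at 12.5% and −1.846 without histidine on day 6 and −0.908 at 12.5% on day 9, H2A −1.054 and −0.02 on day 6, and H4 −1.237 at 50%, −1.76 at 12.5% and −0.991 without histidine.
Leaving out 1 library at a time, the day 6 log2 ratios ran from −1.459 to −0.644, −0.248 to 0.567, −1.411 to −0.596 and −0.092 to 0.723 for H1, from −1.593 to −0.724, 0.167 to 1.036, −0.869 to 0 and −0.016 to 0.852 for H3, and from −2.671 to −1.165, 0.084 to 1.59, −3.64 to −2.134 and −3.053 to −1.547 for H4, in the same order. On day 9 they ran from −0.377 to 0.515 for H2A, −0.443 to 0.32 for H2B and −0.362 to 1.444 for H4 at 50%, and from 0.761 to 2.07 for H4 at 25%.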
